A study of Homo sapiens with 6 samples.

Results

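The HET-1A-only promoter regions are stretches of accessible chromatin near transcription start sites that were called as peaks in the non-cancerous oesophageal line HET-1A and in neither of the oesophageal carcinoma lines KYSE-30 and KYSE-150. They were selected on measured values, namely the presence and absence of called peaks. The peaks of all 6 libraries were merged where they shared at least 1 bp, and a merged region was kept when it had a HET-1A peak, had no KYSE peak and lay within 3 kb of a GENCODE start site on hg19. Of 23972 merged regions, 5174 met these conditions, and nearly all of them, 5147, had their peak in HET-1A library 2. Without HET-1A library 2 the number was 32, and without KYSE-30 library 6 it was 7837, so the set is in large part a contrast of these 2 libraries.

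The study prepared ATAC-seq libraries, in which the Tn5 transposase cuts and tags open DNA, from 50000 cells of each of 3 cell lines with 2 libraries per line, which the submitters call biological replicates. HET-1A, an oesophageal epithelial line immortalised with the SV40 large T antigen, was grown in BEBM medium with its additives. KYSE-30 and KYSE-150, from oesophageal squamous cell carcinomas, were grown in RPMI/F12 with 5% FBS and antibiotic. Each condition is thus 1 cell line in 1 medium, and line, medium and tumour origin cannot be told apart.

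A promoter is the DNA around the site where RNA polymerase II begins a transcript. At an active promoter the nucleosome over the start site is displaced, and general factors such as SP and KLF proteins, NF-Y, ETS factors and NRF1 bind near the start. Many human promoters lie in CpG islands, GC-dense stretches in which the CG dinucleotide is kept, and these are open in most cell types, while promoters outside islands and nearby enhancers vary more between cell types and often carry sites for AP-1, the FOS and JUN dimer.

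The regions' own sequence shows this range. The following stretches are from hg19, forward strand, within 100 bp of the summit and cut back to bases outside annotated exons, with matches to the searched motifs in capitals. All but KRTAP5-7 belong to the 12 regions of highest fold enrichment at protein-coding genes. They were chosen to show regions with different motifs, with none, and away from a start. For CDC6, which loads the replicative helicase at origins, the stretch chr17:38443930-38444130 upstream of the start holds the NF-Y letters CCAAT, or their complement ATTGG, 3 times. For AFF4, the scaffold of the super elongation complex, chr5:132299327-132299420 holds the SP and KLF letters GGGCGG 2 times and the E-box CACGTG once. For ZNF12, a zinc finger repressor, chr7:6746579-6746720 holds the ETS letters ACTTCCGG and 2 overlapping matches to the NRF1 letters GCATGCGC, on opposite strands. The stretch of DDX17, an RNA helicase, at chr22:38902447-38902647 holds none of the 14 motifs searched. At AUTS2, a regulator of neural development, chr7:70064074-70064274 lies downstream of a start site and holds only the TATA box letters TATAAA. At KRTAP5-7, a hair keratin-associated protein gene, chr11:71236367-71236567 is from a region with a peak in both HET-1A libraries. The stretch holds the AP-1 letters TGANTCA once and the NF-Y letters, as the complement ATTGG, once.
CDC6: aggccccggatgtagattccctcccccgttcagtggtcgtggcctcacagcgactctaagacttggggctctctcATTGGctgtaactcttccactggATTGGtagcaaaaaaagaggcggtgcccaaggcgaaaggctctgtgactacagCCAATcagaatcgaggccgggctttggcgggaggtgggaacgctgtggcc
AFF4: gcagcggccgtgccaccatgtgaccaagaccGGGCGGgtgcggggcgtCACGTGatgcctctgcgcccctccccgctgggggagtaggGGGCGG
ZNF12: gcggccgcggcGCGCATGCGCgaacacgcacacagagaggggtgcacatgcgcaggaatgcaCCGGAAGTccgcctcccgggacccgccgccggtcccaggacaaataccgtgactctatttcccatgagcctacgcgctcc
DDX17: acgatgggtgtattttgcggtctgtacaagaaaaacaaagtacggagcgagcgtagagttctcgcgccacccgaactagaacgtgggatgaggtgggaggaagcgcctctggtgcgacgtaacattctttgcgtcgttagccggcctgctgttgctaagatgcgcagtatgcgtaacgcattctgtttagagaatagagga
AUTS2: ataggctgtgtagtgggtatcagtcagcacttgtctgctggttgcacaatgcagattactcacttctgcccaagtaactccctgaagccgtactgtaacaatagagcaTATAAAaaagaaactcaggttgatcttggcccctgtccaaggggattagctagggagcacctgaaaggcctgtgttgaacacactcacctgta
KRTAP5-7: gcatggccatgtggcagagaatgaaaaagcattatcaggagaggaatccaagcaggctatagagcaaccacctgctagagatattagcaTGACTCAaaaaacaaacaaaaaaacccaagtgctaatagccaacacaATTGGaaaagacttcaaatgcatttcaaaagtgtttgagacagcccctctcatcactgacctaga
The stretches from CDC6 to ZNF12 abut a start site, whereas those of AUTS2 and KRTAP5-7 do not. Both strands were searched, and a match is a description of the letters, not of binding.

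HET-1A library 2 had 15979 peaks and its replicate, library 1, had 168. For KYSE-30 the numbers were 11671 (library 6) and 1255 (library 4), and for KYSE-150 they were 547 (library 7) and 259 (library 8). Each list gives a fold enrichment, which divides the tags (fragment ends) under the summit by those of its surroundings in that library, with 1 added to each, and from it and the p-value the whole number of tags was recovered for 99.6 to 100% of the peaks of a library. The total number of reads was not used here. The smallest local background, a measure of depth, was 3.34 tags per 200 bp for HET-1A library 2, 1.88 for its replicate and 1.49 to 2.80 for the KYSE libraries. A region with few tags in a KYSE library is not told apart here from a closed region, since the lists hold called peaks only. With 2 libraries against 2, an exact permutation test between lines could not go under p = 0.33, so no test between lines was run. Shares are given with Wilson 95% intervals, which cover counting error only, and regions are not replicates of a condition.

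The markers of the labelled cell type were checked at promoters. Of 20 markers of squamous epithelium, 7 had a HET-1A region within 3 kb of a start, a share near the 35.5% of all protein-coding genes with one, and 12 had no region in any line, among them the basal keratins KRT5 and KRT14, the lineage factors TP63 and SOX2, the adhesion gene CDH1 and the suprabasal keratins KRT4 and KRT13. HET-1A-only regions lay at 6 of the 20 (30.0%), compared with 20.4% of all protein-coding genes. These were the desmosome genes DSP (fold enrichment 4.47) and JUP (4.72), the integrin ITGA6 (2.93), the keratins KRT6A (3.53) and KRT15 (3.27), and SFN (4.92), which encodes 14-3-3 sigma. JUP also had a region shared with a KYSE line. Of 20 mesenchymal markers, 4 had a HET-1A region, where 35.5% of all genes did, and 2 a HET-1A-only one, FN1 (4.78) and THY1 (3.103), while VIM had a KYSE-30-only region. None of 5 endothelial markers had a HET-1A region, and of 6 leukocyte markers only CD68, a lysosomal protein gene, had one (4.71).

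Promoter regions with a HET-1A peak numbered 8498, of which the HET-1A-only regions were 60.9%. At any position 11306 of 16063 HET-1A regions, 70.4%, had no KYSE peak, and since the rule used these peaks nothing is read from the pair of shares. Of the other promoter regions with a HET-1A peak, 3258 also had a KYSE-30 peak (called shared below) and 66 had a KYSE-150 peak without one of KYSE-30. A further 3369 promoter regions had KYSE-30 peaks alone. The median gap from a HET-1A-only region to the nearest KYSE peak was 47214 bp, and 191 of the regions (3.69%) had a KYSE peak within 500 bp. The rule removes regions that overlap a KYSE peak, and the gap was not measured for other places, so nothing is read from it.

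Both HET-1A libraries had a peak in 3 of the 5174 regions. At KRTAP5-7 (chr11:71236329-71237080) the fold enrichment was 2.87 in library 1 and 2.27 in library 2, with 62 and 107 tags. The local background there was 11.1 times the genome background in library 1. In library 2 it was 46.6 tags, where the genome background was 3.34. At LINC02564 (chr18:11281-11950), near the end of the short arm, it was 4.55 and 3.75, and a KYSE peak lay 9 bp away. At DLGAP4 (chr20:34895879-34896394), a postsynaptic scaffold gene, it was 4.41 and 2.97, with 14 and 20 tags. All 3 regions lay outside a start site. Of the 5147 regions with a library 2 peak, these 3 (0.0583%, 0.0198 to 0.171%) were also called in library 1, compared with 10 of 3256 shared regions with a library 2 peak (0.307%, 0.167 to 0.564%). Support from the replicate was therefore rare in either set.

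In the remaining 27 regions library 1 alone had the peak, and none of them contained a start site. Their median summit count was 15 tags. The highest fold enrichments among them were 7.63 next to LINC02235 and SNX16, 6.25 at KLHL42, 5.90 upstream of MIR1281 near EP300, 5.90 at the pseudogene ENSG00000260159, and 5.52 at the lncRNA ENSG00000254306. A KYSE peak lay 117 bp from the region next to LINC02235, 340 bp from that near EP300 and 66 bp from that at ENSG00000260159. The median fold enrichment of the 27 regions, 4.59, is in library 1, whose depth was lower. Every share given below without a library is in effect that of library 2.

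In library 2 the HET-1A-only promoters were weaker peaks than the shared ones. The median fold enrichment in library 2 was 4.12 (quartiles 3.46 and 4.83), compared with 5.05 (4.35 and 5.82) for shared regions. The median tag count at the summit was 26 compared with 27. The sets therefore differed less in tags than in fold enrichment, and 57.0% of the HET-1A-only regions lay on a local background over 1.5 times that of the genome, compared with 36.8% of the shared regions. Scaled to the depth of KYSE-30 library 6, 2.25 times lower, 9.19% of HET-1A-only and 5.90% of shared regions would fall under 8 tags. That is the fewest tags of any peak in that library, where the median peak had 17. These shares therefore count only regions under the lowest called count. How many further HET-1A-only regions would go uncalled at that depth was not tested. The q-value was under 0.001 in 91.6% of the regions.

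Near the edges of the rule, the values were as follows. The regions closest to the 3 kb limit from inside were 3000 bp from MUC20-OT1 (fold enrichment 3.30), 2997 bp from ENSG00000283360 (4.11) and 2996 bp from HIVEP3 (4.86). Those just outside lay 3012 bp from PEAR1 (2.66), 3012 bp from AP003498.1 (2.02) and 3015 bp from LINC00686 (3.61). The weakest q-values were 0.0431 at ANKLE2, 0.0420 at MIR21 and 0.0292 at ZNF22-AS1, with 13 or 14 tags. The regions nearest a KYSE peak were 1 bp away at ENSG00000261889, 5 bp at CHCHD5 and 7 bp at GEMIN8.

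The 12 strongest regions at protein-coding genes had fold enrichments of 8.29 to 9.40 in library 2, and none had a peak in library 1. They were AFF4 with 40 tags against a background of 3.36 (fold enrichment 9.40), TATDN2 (9.04), KCTD5, an adaptor of cullin ubiquitin ligases (8.98), ISLR2, a membrane protein of growing axons (8.98), CDC6 with 48 tags against 4.54 (8.84), RFX2, a factor of cilium genes (8.75), AUTS2 (8.69), DDX17 (8.69), the chromatin remodeller CHD8 (8.57), ZNF12 (8.54), HIF1AN, which hydroxylates and restrains HIF (8.52), and NOP2, a nucleolar RNA methyltransferase (8.29). Of these, 11 contained a start site, with summits from 205 bp upstream to 6 bp downstream of it. AUTS2 was the exception, with its summit 3103 bp downstream of the nearest start and the region 2945 bp from it. The nearest KYSE peak was 22545 bp (ZNF12) to 205727 bp (RFX2) away. Their background was 1 to 1.66 times that of the genome.

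HET-1A-only regions sat less often on the start site than shared regions did. A start lay inside 48.0% of them (46.6 to 49.3%), inside 79.3% of shared regions (77.9 to 80.7%) and inside 52.5% of KYSE-30-only regions (50.8 to 54.2%). The median widths of the 3 sets were 266, 427 and 273 bp, and shared regions join peaks of both lines. A wider region has more room to contain a start, and the part of width in these shares was not tested. The summit lay over 1 kb from a start in 27.4%, 9.12% and 21.3% of the sets. Within 200 bp upstream of the start lay 40.8% of HET-1A-only summits and 60.9% of shared summits. Starts on opposite strands, of the kind that divergent gene pairs have, lay within 1 kb of each other at 17.3% of HET-1A-only regions, 32.0% of shared and 20.6% of KYSE-30-only regions. The start nearest to the summit belonged to a protein-coding gene in 70.3% of HET-1A-only regions, to a lncRNA in 19.6%, to a pseudogene in 5.51% and to a small RNA in 3.48%. In position the HET-1A-only set was thus closer to the KYSE-30-only set than to the shared one.

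**Figure D1:**
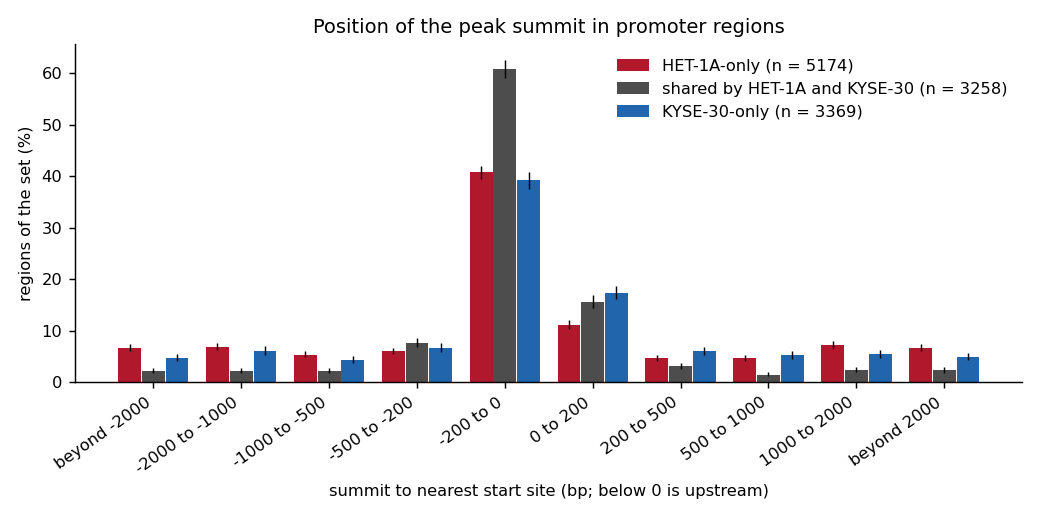
Percent of promoter regions (vertical axis) by the distance of the summit from the nearest start site in bp (horizontal axis, below 0 upstream) for HET-1A-only, shared and KYSE-30-only regions; error bars are Wilson 95% intervals. The shared set reaches 60.9% within 200 bp upstream and the HET-1A-only set 40.8%, with more of its regions in every bin beyond 500 bp.

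How often a library 2 promoter region lacked a KYSE peak followed its strength. Over all 8468 such regions the share was 60.8%. In 5 groups of nearly equal size ordered by fold enrichment it was 88.7% (1.53 to 3.58), 70.9%, 61.8%, 48.2% and 33.8% (5.53 and above), and the intervals of neighbouring groups did not overlap. Among regions that contained a start it was 48.6% (47.3 to 49.99%), and it was 76.8%, 81.3% and 82.9% for regions 1 to 1000, 1001 to 2000 and 2001 to 3000 bp from a start. In 5 groups ordered by GC content in the 201-bp window around the summit, the share was 75.8%, 58.7%, 48.4%, 50.7% and 69.5% from lowest to highest. Both the GC-poorest and the GC-richest promoters were therefore called in HET-1A alone more often than those between. In the group of highest fold enrichment the share was 46.3% (39.9 to 52.8%) in the lowest GC group, 23.5% (19.6 to 27.9%) in the middle one and 51.1% (44.7 to 57.4%) in the highest. In the group of lowest fold enrichment it was 93.3%, 90.4%, 88.3%, 81.5% and 84.3% from lowest to highest GC, so the GC-richest regions did not stand above the middle there. The groups were chosen after values were seen, and the part of depth and of GC-dependent recovery of fragments in these shares was not tested.

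**Figure D2:**
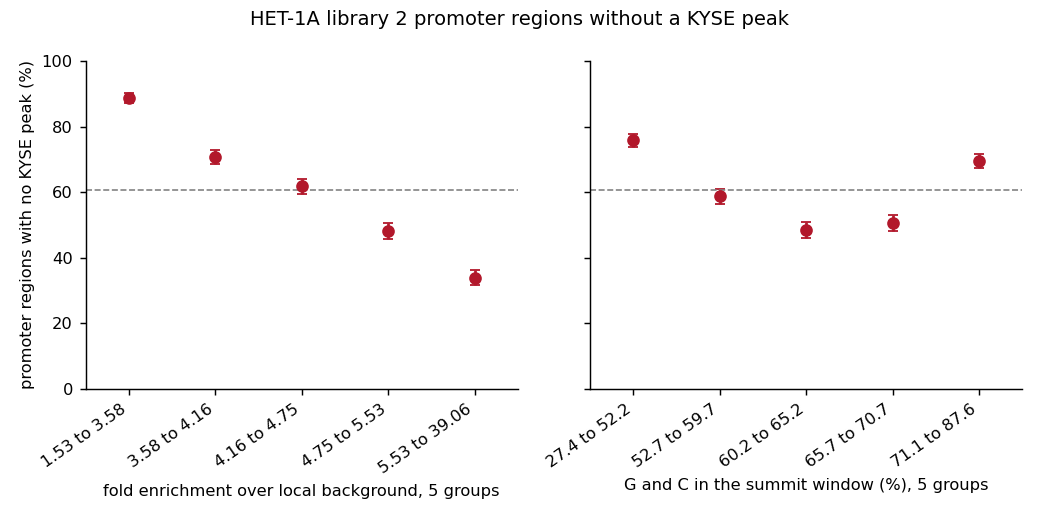
Percent of 8468 HET-1A library 2 promoter regions that had no KYSE peak, in 5 groups by fold enrichment (left) and by GC percent in the summit window (right); points with Wilson 95% intervals, and the dashed line marks 60.8% for all. The share falls from 88.7% to 33.8% with fold enrichment and is lowest, at 48.4%, in the middle GC group.

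The base composition of the set was mixed. A window was counted as CpG rich at a GC content of at least 50% and an observed over expected CG ratio of at least 0.6. This held for 49.3% of HET-1A-only windows (48.0 to 50.7%), 74.6% of shared windows (73.1 to 76.0%) and 50.9% of KYSE-30-only windows (49.2 to 52.6%). It held for 58.9% of windows centred on the most upstream annotated start of each of 20098 protein-coding genes. These are called protein-coding start windows below, and unlike the others they are not centred on a summit. Of HET-1A-only regions beyond 3 kb, 4.08% were CpG rich. Among regions that contained a start the sets were closer, at 80.4% (78.8 to 81.9%) in HET-1A-only, 85.5% (84.1 to 86.8%) in shared and 75.7% (73.6 to 77.6%) in KYSE-30-only regions. Mean GC there was 66.4 ± 9.32% (SD over 2481 windows) in HET-1A-only regions, 63.7 ± 7.41% in shared and 62.2 ± 8.11% in KYSE-30-only regions.

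CpG content divided the HET-1A-only regions into a pair of unlike groups. The 2552 CpG-rich regions contained a start site in 78.2% of cases, belonged to a protein-coding gene in 84.4% and had a median fold enrichment of 4.43. The 2622 others contained a start in 18.5%, belonged to a protein-coding gene in 56.5% and had a median of 3.76. Their median distance to a start was 993 bp, compared with 60 bp in the CpG-rich group. The AP-1 letters TGANTCA lay in 29.1% of the windows that were not CpG rich and in 3.33% of those that were.

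The AP-1 letters were more frequent in HET-1A-only windows as a whole (16.4%, 15.4 to 17.4%) than in shared ones (12.4%, 11.3 to 13.6%). They were found in 18.3% of KYSE-30-only windows, 3.91% of all protein-coding start windows and 32.7% of HET-1A-only regions beyond 3 kb. The order of HET-1A-only and shared regions turned with position. Where a region contained no start, AP-1 was in 25.03% of HET-1A-only windows (23.4 to 26.7%) and in 38.7% of shared windows (35.1 to 42.5%). Where it contained a start, AP-1 was in 6.97% (6.04 to 8.04%) and 5.57% (4.75 to 6.53%). The higher share in the whole HET-1A-only set thus came with its larger part of regions away from start sites.

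The NF-Y letters CCAAT were less frequent in HET-1A-only regions than in shared ones at either position. They lay in 26.8% of HET-1A-only windows (25.6 to 28.0%), 43.2% of shared (41.5 to 44.9%), 26.95% of KYSE-30-only and 25.9% of protein-coding start windows. In regions that contained a start the shares were 31.4% (29.6 to 33.3%), 46.3% (44.4 to 48.2%) and 32.3% (30.2 to 34.5%) in the 3 sets. Limited further to fold enrichments of 3.73 to 5.30, the interquartile range of library 2 promoters, CCAAT was in 32.0% of HET-1A-only (29.7 to 34.5%) and 41.3% of shared windows (38.6 to 44.1%). CDC6 and CHD8 were among the HET-1A-only regions that held it.

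Other promoter motifs depended on position. The SP and KLF letters GGGCGG were in 42.7% of HET-1A-only, 56.8% of shared and 35.4% of KYSE-30-only windows, and in 46.7% of protein-coding start windows. With a start inside, HET-1A-only and shared regions had nearly the same share, 64.3% (62.3 to 66.1%) and 63.7% (61.9 to 65.6%), above the 49.97% (47.6 to 52.3%) of KYSE-30-only regions. The NRF1 letters GCATGCGC were there in 6.33% (5.44 to 7.36%), 5.73% (4.90 to 6.69%) and 3.79% (2.99 to 4.78%). The ETS letters ACTTCCGG were there in 7.54% (6.56 to 8.64%), 9.29% (8.23 to 10.5%) and 8.03% (6.85 to 9.39%), with overlapping intervals. In protein-coding start windows the shares were 2.99% for NRF1, 4.49% for ETS, 5.88% for the E-box and 7.13% for the TATA box.

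**Figure D3:**
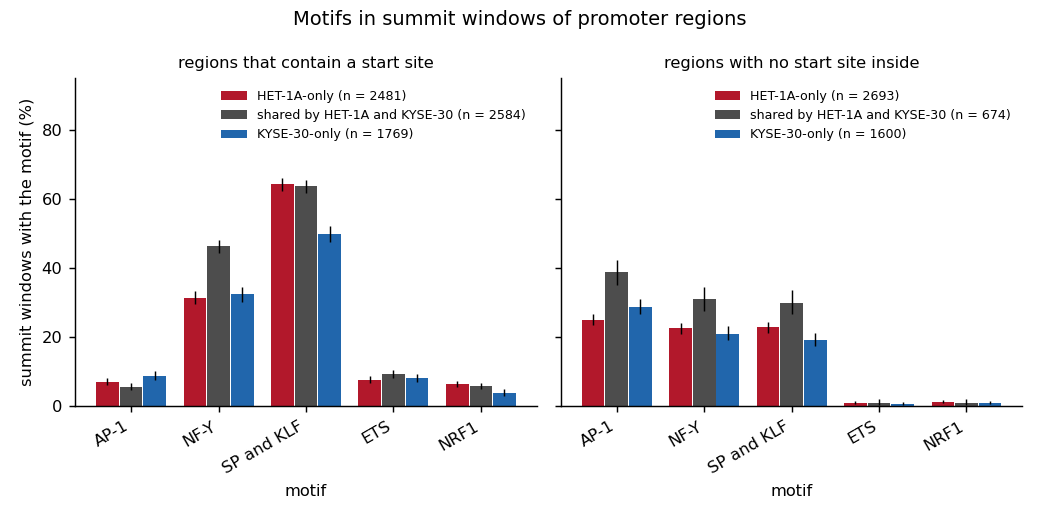
Percent of 201-bp summit windows that hold each motif (horizontal axis), in regions with a start site inside (left) and without (right), for HET-1A-only, shared and KYSE-30-only promoter regions; error bars are Wilson 95% intervals. NF-Y is lower in HET-1A-only than in shared regions in both panels (31.4% and 46.3% on the left), and AP-1 is lower on the right (25.03% and 38.7%).

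The regions were spread over every autosome, with unequal shares. On chromosome 22 77.0% (71.1 to 82.1%) of library 2 promoter regions had no KYSE peak, followed by 72.8% on 19, 72.2% on 17 and 69.6% on 16. The lowest shares were 46.9% (42.0 to 51.9%) on chromosome 5, 48.6% on 7 and 49.3% on 10. Across the 22 autosomes the share had a Spearman correlation of -0.66 with median fold enrichment and 0.17 with mean GC, as a description of points that share 1 library. Chromosomes 17 and 19 had median fold enrichments of 4.33 and 4.48, close to the 4.45 of all regions. Other chromosomes with high shares had lower medians, 4.29 on 22 and 4.27 on 16. On 18 and 11, with shares of 68.3% and 67.9%, the medians were 3.98 and 4.085.

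**Figure D4:**
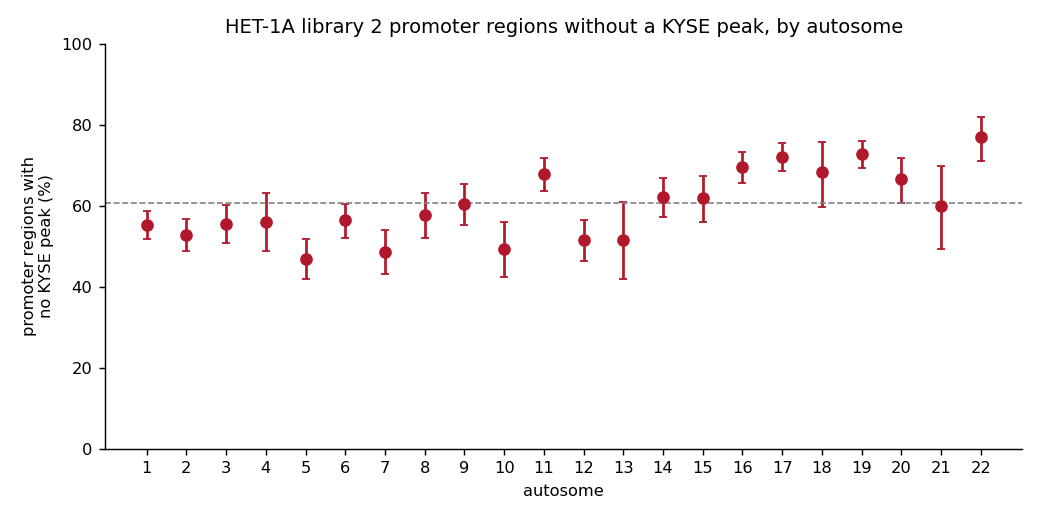
Percent of HET-1A library 2 promoter regions without a KYSE peak on each autosome; points with Wilson 95% intervals, and the dashed line marks 60.8% for all. Chromosomes 22, 19 and 17 lie highest, at 77.0%, 72.8% and 72.2%, and chromosome 5 lowest at 46.9%.

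Some regions lay in segments of raised background, where many tags fell over a wide stretch. In 252 HET-1A-only regions (4.87%, 4.32 to 5.49%) the local background was at least 4 times that of the genome, compared with 1.38% of shared regions (1.03 to 1.84%). Chromosome 11 held 79 of them, chromosome 8 43, chromosome 18 38 and chromosome 19 27. The genes with the most HET-1A-only regions were mostly there. PVT1, a lncRNA beside MYC, had 14 regions with fold enrichments of 1.65 to 3.79 on a background of 15.8 to 22.3 times that of the genome. SHANK2, a synaptic scaffold gene, had 9 (1.53 to 2.08, background 17.4 to 26.8) and NADSYN1, an NAD synthetase gene, had 6 (1.54 to 1.91, background 18.3 to 27.6). PPFIA1, a liprin gene, had 5 (1.79 to 1.98, background 10.1 to 18.5). The lncRNA PCAT1 also had 5 regions, as did the septin gene SEPTIN9, and theirs were on a background of 1.06 to 2.34 and 1.68 to 2.46. Such low fold enrichments were rare elsewhere, and in the HET-1A-only set without the 252 regions the lowest was 2.18. Copy number and accessibility in these segments cannot be told apart from peak lists.

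At the level of genes, 4092 of 20098 protein-coding genes, 20.4%, had a HET-1A-only region within 3 kb of a start site, and 807 of these had a KYSE region at another place within 3 kb of their starts. The 3285 genes without any KYSE region were 16.3% of all. A shared region lay at 3489 genes, 17.4%, and 479 genes had both kinds. Without HET-1A library 2 the share of genes was 0.0796%, and without KYSE-30 library 6 32.4%. The shares in the gene lists that follow are to be read against 20.4% and 17.4%, and fold enrichments are those in library 2 unless named otherwise. Distances from a start and starts inside a region refer there to annotated starts of any gene, not always the list gene's own.

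Genes that regulate chromatin were found often. Of 58 chromatin regulators, 24 had a HET-1A-only region (41.4%, 29.6 to 54.2%), 19 of them without any KYSE region, while 13 (22.4%) had a shared one. The highest were CHD8 (fold enrichment 8.57), the H3K4 methyltransferase KMT2A (6.45, 48 bp from a start), the SWI/SNF ATPase SMARCA4 (6.29), the H3K27 demethylase KDM6B (6.25, with a KYSE-30-only region as well) and the H3K9 methyltransferase SUV39H1 (5.07, 864 bp from a start). Each had a summit count of 21 to 64 tags. A HET-1A region of any kind lay at 34 of the 58 genes, compared with 35.5% of all protein-coding genes. The list was thus also high in HET-1A regions as a whole.

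TGF-beta and BMP signalling runs from ligands through receptor kinases to SMAD proteins that enter the nucleus, and its genes had more HET-1A-only than shared regions. Of 38 genes, 13 had a HET-1A-only region (34.2%, 21.2 to 50.1%) and 3 a shared one (7.89%). No KYSE region lay at 12 of the 13. Among receptors and ligands these included TGFBR1 (5.11) and INHBA, an activin subunit (5.41), which alone had a shared region as well. Among the SMAD mediators were SMAD5, which carries BMP signals (5.53), and the inhibitory SMAD6 (4.503). The SMAD repressor SKI was the strongest (5.65, 248 bp from a start). The regions of SMAD5, INHBA, TGFBR1 and SMAD6 contained a start site. The median fold enrichment over the 13 genes was 4.20, close to that of all HET-1A-only regions.

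The lists of DNA replication and repair genes had higher counts of shared than of HET-1A-only regions. Of 36 replication genes, 13 had a HET-1A-only region (36.1%, 22.5 to 52.4%) and 17 a shared one (47.2%). Among the highest after CDC6 (8.84) were the clamp loader subunit RFC5 (6.38), the single-strand binding subunit RPA1 (5.78) and the polymerase subunit POLE (5.53), and each of these regions contained a start. Of 45 repair genes, 14 had a HET-1A-only region (31.1%, 19.5 to 45.7%) and 16 a shared one (35.6%), and the interval of the HET-1A-only share includes 20.4%. These were led by BRCA1 (7.41, with a shared region too), FANCG (5.96), the mismatch repair gene MSH3 (5.69), the end-joining gene XRCC6 (5.48) and RAD51B (5.39, 2480 bp from a start).

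Housekeeping families had shares of HET-1A-only regions whose intervals include 20.4%, and higher shares of shared regions. For 39 proteasome subunits the counts were 12 (30.8%, 18.6 to 46.4%) and 16 (41.0%), led by PSMD7 (6.22), PSMB6 (6.21), PSMB3 (6.08), PSMD4 (6.0) and PSMB5 (5.58). For 78 mitochondrial ribosomal protein genes they were 19 (24.4%, 16.2 to 34.9%) and 29 (37.2%), with MRPL45 (7.88), MRPL15 (6.43), MRPL49 (5.61), MRPL21 (4.96) and MRPL51 (4.69). For 81 cytosolic ribosomal protein genes they were 19 (23.5%, 15.6 to 33.8%) and 25 (30.9%), with RPL27 (7.12), RPS26 (6.74), RPL13A (6.29), RPL28 (5.95) and RPL36 (5.91). MRPL21 lay on a background 4.64 times that of the genome.

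For the p53 targets, 5 of 22 genes had a HET-1A-only region (22.7%, 10.1 to 43.4%) and 8 a shared one (36.4%). The 5 were the apoptosis gene BAX (6.10), the phosphatase gene PPM1D (4.80), the cell-cycle inhibitor CDKN1A (4.58), BTG2 (4.41) and SESN2 (4.36). Each of these regions contained a start, and no KYSE region lay at any of the 5.

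Among 30 genes often mutated or deleted in squamous oesophageal cancer, 9 had a HET-1A-only region (30.0%, 16.7 to 47.9%) and 5 a shared one (16.7%). Among the highest were EP300 (5.90), the remodeller subunit PBRM1 (5.07, 2489 bp from a start), FBXW7 (4.37) and RB1 (4.37). The EP300 region was from library 1 alone, 1144 bp from the MIR1281 start and 340 bp from a KYSE peak. EP300 and FBXW7 also had a shared region. RB1, the brake on E2F at the start of S phase, had 18 tags in library 2 and no KYSE region.

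The Notch list had 10 of 33 genes with a HET-1A-only region (30.3%, 17.4 to 47.3%) and 7 with a shared one. Among its highest were the receptor NOTCH4 (4.82), the ligand JAG1 (4.79, 208 bp from a start), and the gamma-secretase subunits PSENEN (4.15) and APH1A (3.98). PSENEN lay on a background 5.04 times that of the genome, and PSENEN and JAG1 also had KYSE regions. In the WNT list 6 of 47 genes had a HET-1A-only region (12.8%, 5.98 to 25.2%) and 6 a shared one. The 6 were the nuclear factor TCF7 (5.15), the destruction complex scaffold AXIN1 (5.05), the receptors FZD2 (4.62) and FZD7 (3.003), the transducer DVL2 (4.30) and the ligand WNT7B (3.15, 1963 bp from a start).

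Of 35 interferon response genes, 6 had a HET-1A-only region (17.1%, 8.10 to 32.7%), among them IRF3 (4.93), ISG15 (4.70), RIGI (3.68), IRF9 (3.51) and MX2 (2.85). RIGI and MX2 also had KYSE regions, and 21 of the 35 had no region in any line. Among 44 collagen genes the counts were 7 HET-1A-only (15.9%, 7.93 to 29.4%) and 1 shared (2.27%). They were COL12A1 (5.22), COL9A2 (4.05), COL27A1 (3.83), COL7A1, the anchoring fibril collagen of squamous basement membranes (3.403), COL16A1 (3.096), COL6A1 (3.03) and COL20A1 (2.46). Only the COL12A1 region contained a start. Of 39 HOX genes, 3 had a HET-1A-only region, HOXA5 (4.86) and the pair HOXB3 and HOXB6, which share 1 region (4.43).

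In large families the shares were near the background or below it. Of 508 genes named ZNF, 94 had a HET-1A-only region (18.5%, 15.4 to 22.1%) and 87 a shared one (17.1%), with ZNF12 (8.54), ZNF589 (7.54), ZNF232 (6.90), ZNF785 (6.83) and ZNF77 (6.68) the highest. Of 367 solute carriers, 76 had one (20.7%, 16.9 to 25.1%), led by SLC25A16 (6.93), SLC35B1 (6.51), SLC25A11 (6.37), SLC46A3 (6.32) and SLC25A38 (6.22). Of 414 olfactory receptor genes, most of which are silent outside sensory neurons, 3 had one (0.725%, 0.247 to 2.11%). These were OR4K5, OR3A1 and OR1F1, none with a start inside.

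**Figure D5:**
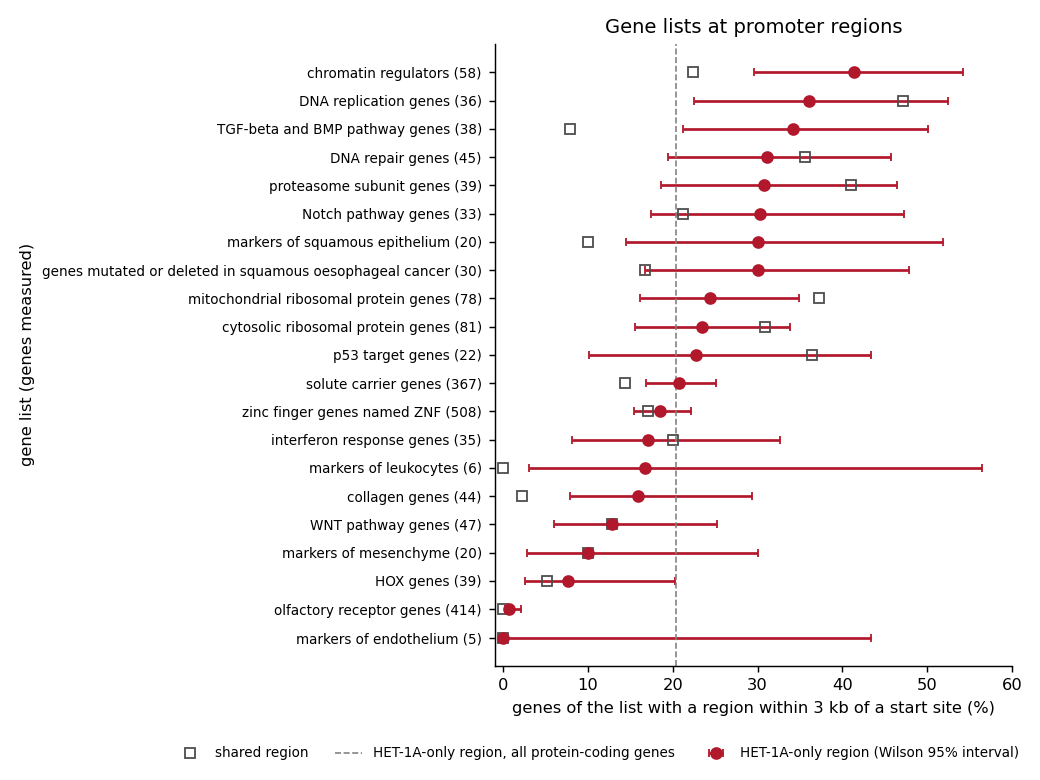
Percent of the genes of each list (vertical axis, number of genes measured) with a HET-1A-only region (red, Wilson 95% interval) or a shared region (open squares) within 3 kb of a start site; the dashed line marks 20.4% for all protein-coding genes. Chromatin regulators are highest at 41.4%, and TGF-beta and BMP genes reach 34.2% with 7.89% shared.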

How the data were processed

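ATAC-seq peak lists of 6 libraries were used. Per the labels and the study's methods, the authors trimmed reads, mapped them to hg19 with Bowtie2 2.3.3.1, marked duplicates with Picard 2.2.1, removed blacklisted regions with bedtools 2.7.1 and corrected positions for the Tn5 offset. From fragments shorter than 100 bp, they called the peaks of every library on its own with MACS2 2.1.0.20160309 at a q-value of 0.05, extending tags to 200 bp. Replicates were not pooled. The deposited lists give a score (10 times −log10 q), a fold enrichment (a ratio to local background with 1 added to each), and the authors' −log10 p-value and q-value.

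Peaks were merged from 1 shared bp and annotated with GENCODE 44 lifted to hg19. Tags and local background were recovered from fold enrichment and p-value, within 0.001 of −log10 p. Motifs and CpG content were read in 201-bp windows around the summit, on both strands, with the highest HET-1A peak (KYSE-30 peak for KYSE-30-only regions) giving the summit. A list gene counted when a region lay within 3 kb of any of its starts. Merging with the selection rule, tag recovery and motif search were tested on simulated data, and the assignment of regions to genes was not.

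The members and gene lists were chosen with earlier results of these data known. Named were the regions with peaks in both HET-1A libraries, the 5 strongest of library 1 alone, the 12 strongest at protein-coding genes, the 5 genes with most regions (6 with ties), the regions nearest each limit, and list genes with a region (all where 8 or fewer, otherwise the 5 of highest fold enrichment). For 1 of 6 endothelial markers no protein-coding entry was matched. Shares have Wilson 95% intervals. No test between sets or lines was run, and groups rest on the sample titles. Alternatives were stricter q-values, equal list lengths, other definitions of promoter and overlap, other windows and each library left out. The software was matplotlib 3.10.9, pandas 2.3.3, pysam 0.24.0, scipy 1.17.1 and numpy 2.4.6 under Python 3.11.15. The authors' DiffBind counts are not used here. Some list genes and a sequence that meet these rules are not reported here.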

Additional observations from a re-analysis of the deposited data

How the results depend on the processing

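The set rests on 2 libraries. With each library left out in turn, the number of HET-1A-only promoter regions ranged from 32 (without HET-1A library 2) to 7837 (without KYSE-30 library 6), the share of HET-1A promoter regions without a KYSE peak from 60.8% to 92.0%, the median fold enrichment in library 2 from 4.12 to 4.38, the share of protein-coding genes from 0.0796% to 32.4%, and the share of CpG-rich windows from 12.5% to 57.7%. A peak in both HET-1A libraries left 3 regions and 0.00995% of genes. With the longer of the lists of HET-1A library 2 and KYSE-30 library 6 limited to the 11671 peaks of smallest p-value, the share without a KYSE peak was 55.9%, that of genes 16.5% and that of CpG-rich windows 57.2%. A promoter of 1 kb gave 56.0%, 16.8% and 63.4%. Start sites of protein-coding genes only gave 57.7% without a KYSE peak and 59.5% CpG rich. Counting KYSE peaks within 500 bp gave 58.6% without a KYSE peak and 19.5% of genes, and counting only those where each peak covers 50% of the other gave 68.7%, 23.5% of genes and 52.5% CpG rich. CpG-rich windows were 52.7% at a q-value under 0.001. In settings chosen after seeing the data they were 50.8% without raised background and 80.4% with a start inside. In each of these settings the number of regions stayed within 1.5 times 5174, apart from the counts of 3, 32 and 7837 and the 2481 regions with a start inside. The cause was not tested.

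Motif shares moved beyond their intervals for 14 of 14 motifs in whole peaks (all up) and in windows of 50 bp to each side (all down), for 13 in regions with a start inside, for 11 with a promoter of 1 kb, for 9 with protein-coding starts only, for 6 with lists of equal length, for 5 between the quartiles of fold enrichment, for 13 without HET-1A library 2 and for 5 without KYSE-30 library 6. The labels give no pairing of libraries between the lines, so no paired analysis was made. No test was run.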

Other observations

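Further motifs and places were described after their values were seen. In regions with a start site inside, the CTCF part CCACNAGG was in 4.84% of HET-1A-only windows (4.06 to 5.75%), 3.21% of shared (2.60 to 3.96%) and 3.05% of KYSE-30-only windows (2.35 to 3.96%). In regions with no start inside, the TEAD letters ACATTCC were in 3.97% of HET-1A-only windows (3.30 to 4.78%), 3.56% of shared (2.40 to 5.24%) and 5.63% of KYSE-30-only windows (4.60 to 6.86%). The RUNX letters TGTGGTT were there in 3.12% (2.53 to 3.85%), 4.15% (2.89 to 5.94%) and 4.69% (3.76 to 5.84%). The forkhead letters TGTTTAC were there in 3.53%, 3.86% and 3.69%, with overlapping intervals. The shares in all protein-coding start windows were 3.45% for the CTCF part, 1.69% for TEAD, 2.45% for RUNX and 1.42% for forkhead. Also with a start inside, the shares in HET-1A-only, shared and KYSE-30-only windows were 7.46%, 6.73% and 7.69% for the YY1 letters ATGGCGG, 3.14%, 3.52% and 3.79% for the CRE letters TGACGTCA, 3.55%, 4.53% and 3.11% for the ZNF143 letters ACTACAA, 8.42%, 8.01% and 7.69% for the E-box and 2.34%, 2.44% and 2.996% for the TATA box, and the intervals of the sets overlapped for each of these. Protein-coding start windows held YY1 in 5.91%, CRE in 1.87% and ZNF143 in 1.92%.

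In 5-Mb windows with at least 20 HET-1A library 2 promoter regions, of which there were 136, the share without a KYSE peak was highest on chromosome 1 between 20000001 and 25000000 bp (34 of 36, 94.4%, 81.9 to 98.5%) and on chromosome 17 between 35000001 and 40000000 bp (56 of 61, 91.8%, 82.2 to 96.4%). It was lowest on chromosome 1 between 35000001 and 40000000 bp (7 of 31, 22.6%, 11.4 to 39.8%). The first and last of these lie on the same chromosome arm, and their mean GC was 59.1% and 64.2%.

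The strongest HET-1A-only regions whose nearest start was of a lncRNA had fold enrichments of 7.95 at ENSG00000286357, with CRNDE within 1 kb, 7.71 at DHX33-DT, with DHX33 within 1 kb, 7.597 at DYNLRB2-AS1, with DYNLRB2 within 1 kb, and 7.55 at CASC19. CASC19 and PCAT1, lncRNAs upstream of MYC, had 4 and 5 HET-1A-only regions without raised background, whereas all 14 of PVT1 had it. LAMA3, which encodes a laminin chain of epithelial basement membranes, and YAP1, the Hippo pathway coactivator, had 4 regions each. Their fold enrichments were 3.36 to 5.07 and 3.18 to 5.20. Further genes, among them ABR, ACIN1, LMF1 and NDE1, also had 4, so the count is not particular to this pair.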
